A study of Mus musculus with 16 samples.

Results

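The 60 genes described here encode the machinery that moves new secretory proteins into the endoplasmic reticulum (ER), begins their glycosylation and carries them to the Golgi. They were taken from a named list and matched by symbol to the deposited table, in which each of the 60 had 1 row among 24019 genes. The list was chosen with earlier results of these data known, so its counts below are not independent evidence. The list holds 21 genes of ER targeting and translocation, 7 of the oligosaccharyltransferase, 12 of the COPII coat and its exit sites, 8 of the COPI coat, and 12 cargo receptors, retrieval receptors and a SNARE. After a filter on low counts 58 were tested, and Sec16b and Sec23a were not. All 60 matched the identifier and span of a GENCODE M21 gene (mouse build GRCm38), on 17 chromosomes.

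Pancreas tissue came from 16 mice aged 6 to 8 weeks, 4 in each of 4 groups that cross genotype with treatment. Wild-type mice (WT, C57BL/6J) were compared with littermates homozygous for Adam17ex (Adam17ex/ex, written Adam17ex from here on), a hypomorphic allele that lowers the output of the gene for the protease ADAM17. The labels name no Cre driver or cell type for it. Each mouse received 7 injections at intervals of 1 h, either cerulein at 50 µg/kg, a cholecystokinin analogue that overstimulates acinar cells and causes acute pancreatitis, or 50 µl of phosphate-buffered saline (PBS), and was killed 1 h after the last. The groups held 0 males (WT PBS), 1 male (WT cerulein), 2 males (Adam17ex PBS) and 2 males (Adam17ex cerulein), and sex was a term in the fit.

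Acinar cells make more secretory protein than almost any other cell, and the genes below are the standing equipment for it. The signal recognition particle (SRP) brings ribosomes that carry a signal peptide to the SEC61 channel, the signal peptidase cuts the peptide off, and the oligosaccharyltransferase adds a glycan to asparagine residues. COPII vesicles then carry cargo out of the ER, while COPI vesicles return escaped ER proteins and recycling receptors from the Golgi.

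Libraries held 455547 to 1476159 UMIs (unique molecular identifiers, each counting 1 captured RNA molecule from its 3′ end), so 1 UMI was worth 0.677 to 2.20 CPM (counts scaled to the library total). Counts of Adam17 summed over a group came to 41 (WT PBS), 68 (WT cerulein), 10 (Adam17ex PBS) and 15 (Adam17ex cerulein). Adam17ex PBS replicates 1 to 3 were the shallowest, at 455547 to 492878 UMIs, and carried the most counts of a ribosomal RNA gene (7.84% to 9.02%, against 2.02% to 5.04% elsewhere). Markers of B and plasma cells summed to 731 and 1150 CPM in WT PBS replicates 1 and 2 but to 66.1 and 76 in replicates 3 and 4. In Adam17ex PBS they ranged from 78 to 1200 CPM. The 12 acinar markers, among them digestive enzyme genes, were detected in every group and summed to 128000 CPM or more in each library. Levels below are TMM-scaled CPM in the order of replicates 1 to 4, and differences are log2 fold changes ± SE.

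Together the 60 members took 0.866% ± 0.0359 of UMIs in WT PBS libraries and 0.509% ± 0.0368 in WT cerulein libraries (SD, n = 4). In Adam17ex libraries the share was 0.661% ± 0.0801 under PBS and 0.567% ± 0.0289 under cerulein (SD, n = 4). The summed level of the members lay between 8510 and 9720 CPM in WT PBS and between 4190 and 4990 in WT cerulein. It lay between 5870 and 7930 CPM in Adam17ex PBS and between 5700 and 6640 in Adam17ex cerulein. Both Adam17ex groups therefore fell between the WT groups and overlapped each other. In tissue RNA, fewer acinar cells and less of a transcript in each acinar cell cannot be told apart.

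WT cerulein was also the lowest group within each class. In WT, translocation genes summed to 4460 ± 244 CPM under PBS and 2180 ± 199 under cerulein, and in Adam17ex to 3490 ± 523 and 2870 ± 242 CPM (SD, n = 4). Oligosaccharyltransferase genes summed to 806 ± 46.8, 397 ± 27.7, 614 ± 45.2 and 504 ± 23.5 CPM in WT PBS, then WT cerulein, then the Adam17ex groups in the same order (SD, n = 4). COPII genes gave 692 ± 78 CPM in WT PBS and 406 ± 27.7 in WT cerulein, and 647 ± 64.2 and 554 ± 55.9 CPM in the corresponding Adam17ex groups (SD, n = 4). For COPI genes the sums were 855 ± 65.6, 458 ± 48.7, 762 ± 72.7 and 680 ± 31 CPM, and for cargo and retrieval genes 2260 ± 173, 1130 ± 89.9, 1770 ± 281 and 1430 ± 127 (SD, n = 4). In all 5 classes the WT cerulein libraries overlapped no other group.

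**Figure D1:**
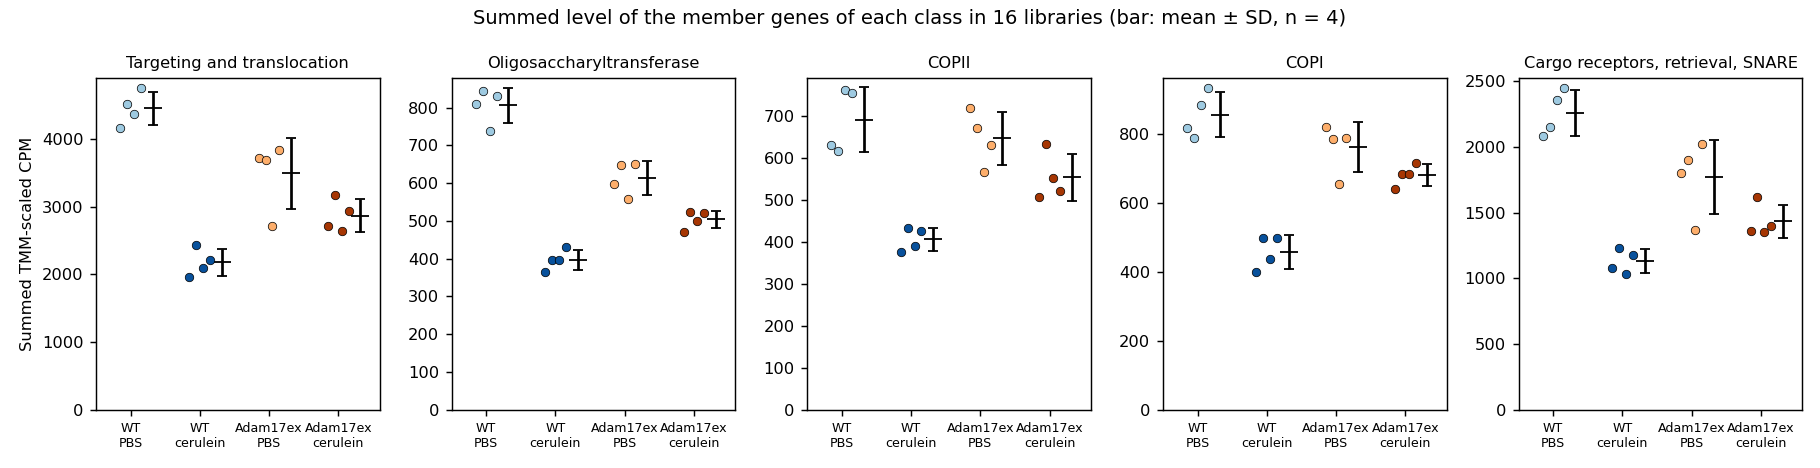
Summed level (TMM-scaled CPM, linear axis from 0) of the member genes of each of 5 classes, with 1 point per library, 4 libraries per group, and a bar for the mean ± SD. In every panel the 4 WT cerulein libraries lie below all others, for example at 364 to 431 CPM for the oligosaccharyltransferase, against 472 to 523 in Adam17ex cerulein libraries.

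In WT mice, cerulein lowered most of the pathway. Of the 58 tested members 43 fell and 2 rose, by edgeR's quasi-likelihood test at a Benjamini-Hochberg adjusted p below 0.05, and 13 did not pass. Over all 8236 tested genes the same rule called 21.3% lower and 19.8% higher. The members' median difference was -0.85, against -0.04 over all tested genes. In 42 members every WT cerulein library lay below every WT PBS library (20.2% of all tested genes did so), and in 2 members every one lay above (19.2%). The falls ran through every class, with 16 of 21 translocation genes, 6 of 7 oligosaccharyltransferase genes, 7 of 10 tested COPII genes, 7 of 8 COPI genes and 7 of 12 cargo and retrieval genes called lower. Class medians were close to each other, from -0.91 for COPII to -0.76 for cargo and retrieval, with -0.82 for translocation, -0.87 for the oligosaccharyltransferase and -0.77 for COPI. Whether the classes differ was not tested.

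The largest falls in WT were those of Tram1, a membrane protein beside the translocon, and Lman1, a cargo receptor for glycoproteins, at -2.13 ± 0.19 and -2.06 ± 0.20. Kdelr3 and Sec11a rose. The 13 members that did not pass were Srp14, Srp19, Srp54a, Sec63, Ost4, Sec24a, Sec24c, Sar1a, Copb1, Lman2, Kdelr1, Kdelr2 and Tmed9, with values from -0.49 for Srp14 to 0.26 for Sec24a. Of the 45 calls, 8 were lost when 1 of the 16 libraries was left out, those of Copb2, Copg1, Sar1b, Sec23b, Sec61a1, Srp68, Stt3a and Surf4. The highest adjusted p reached was that of Copb2, 0.168 in edgeR without WT PBS replicate 3.

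In Adam17ex mice fewer members passed. Cerulein lowered 11 and raised 3 of the 58, against 16.2% and 14.1% of all tested genes. The members' median was -0.20 and that of all tested genes -0.03. Cerulein libraries lay wholly below PBS libraries for 10 members (11.9% of all tested genes) and wholly above for 1 (13.8%). The members that fell were Sec62, Tram1, Ssr1 and Sec11c among translocation genes, Rpn2 and Ddost of the oligosaccharyltransferase, Sec31a and Mia3 of COPII, Copz1 of COPI, and the cargo receptors Tmed10 and Lman1. Sar1a, Sec11a and Kdelr3 rose. The count of 11 rests partly on the Adam17ex PBS libraries, being 7 without replicate 1 of that group (13.3% of all genes tested in that fit were then lower). It was 2 without the 3 shallow libraries of the group, where 7% of all genes were lower, a higher share than among the members. The count of 3 became 1 without Adam17ex PBS replicate 3 or without replicate 4 (13.3% of all genes each), and 5 without WT PBS replicate 2, 3 or 4 or Adam17ex PBS replicate 2 (15.7%, 15.3%, 15% and 12.6%).

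**Figure D2:**
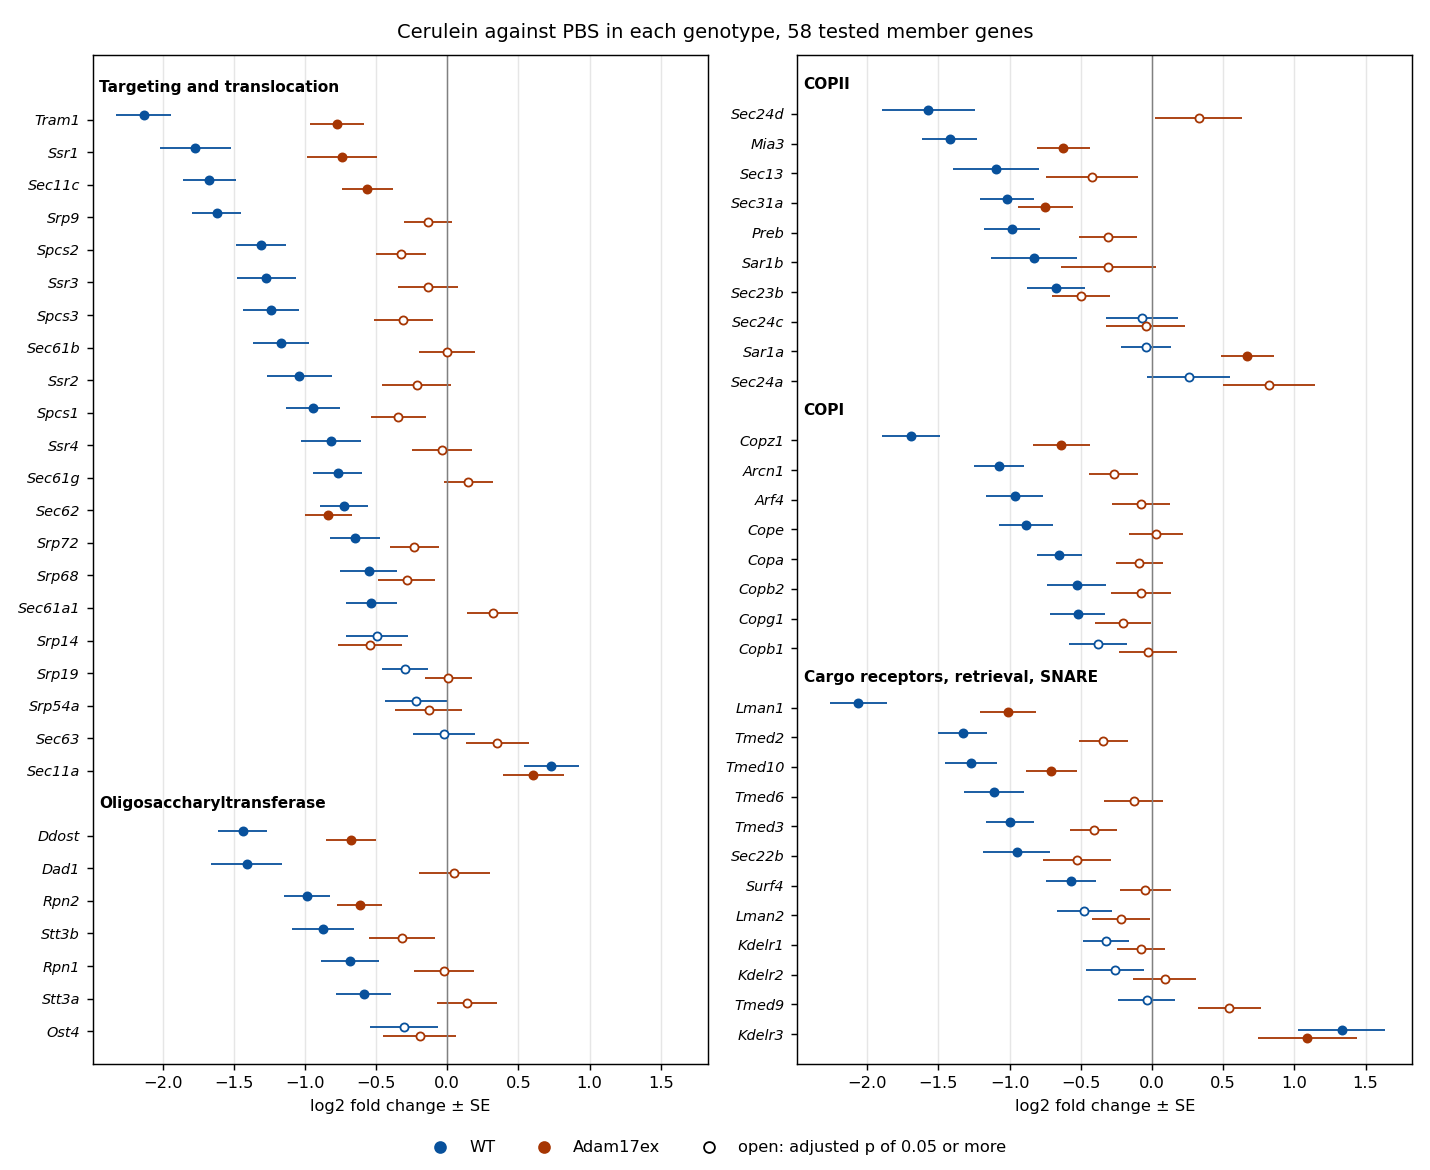
Difference between cerulein and PBS libraries (log2 fold change ± SE, edgeR) for the 58 tested members in WT (blue) and Adam17ex (brown), by class and ordered by the WT value, with filled points at an adjusted p below 0.05. Blue points lie mostly left of 0, from -2.13 for Tram1 to 1.33 for Kdelr3, and brown points run from -1.01 for Lman1 to 1.09 for Kdelr3, nearer to 0 than the blue point for 52 members and farther from it for 6.

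Under cerulein, 14 of the 58 members were higher in Adam17ex than in WT mice, where 5.85% of all tested genes were called higher and 3.85% lower. None of the members was lower in edgeR's test, at an unadjusted p below 0.05 (0 members) or by DESeq2 or limma-voom (0 each). The median was 0.37, against 0.01 over all tested genes. Adam17ex cerulein libraries lay wholly above WT cerulein libraries for 21 members (9.64% of all tested genes) and wholly below for 1, Sec11a (7.92%). The 14 were Srp9, Srp72, Sec61a1, Sec61g, Tram1 and Sec11c of translocation, Rpn2 of the oligosaccharyltransferase, Sec24d and Mia3 of COPII, Copb1, Copz1 and Arcn1 of COPI, and Tmed2 and Lman1 among cargo receptors. COPI had the highest class median, 0.56, followed by translocation at 0.37, COPII at 0.33, cargo and retrieval at 0.29 and the oligosaccharyltransferase at 0.27. These class medians were not tested against each other.

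Srp9, Sec11c, Sec24d and Arcn1 kept this call with any 1 of the 16 libraries left out. The other 10 lost it without at least 1 library. Without WT cerulein replicate 1, the male of that group, Tram1 gave an edgeR adjusted p of 0.0973, Mia3 0.0544, Copz1 0.0624, Lman1 0.213, Tmed2 0.21 and Copb1 0.263. The count of 14 was 4 without that library (2.98% of all genes were then higher), 8 without WT cerulein replicate 3 (4.01%), 9 without replicate 4 (4.32%) and 7 without Adam17ex cerulein replicate 2 (4.05%). Among the 11 females alone it was 1, where 1.97% of all genes were higher, so that the members' share was no higher than that of all genes.

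Under PBS the genotypes differed in 1 member. Spcs3, a signal peptidase subunit, was lower in Adam17ex, where 0.729% of all tested genes were called lower and 0.631% higher. None was higher in edgeR's test, at an unadjusted p below 0.05 (0 members), or by DESeq2 or limma-voom (0 each). At an unadjusted p below 0.05, 15 members were lower, as were 8.72% of all tested genes. In 11 members the Adam17ex PBS libraries lay wholly below those of WT (6.24% of all tested genes) and in 0 wholly above (4.16%). The members' median was -0.27, and that of all tested genes 0.03. Class medians were -0.28 for translocation, -0.46 for the oligosaccharyltransferase, -0.24 for COPII, -0.01 for COPI and -0.34 for cargo and retrieval. The Spcs3 call was lost without any 1 of 11 libraries, with the highest edgeR adjusted p, 0.107, without Adam17ex PBS replicate 2. Without 1 library the count ranged from 0 to 4, the latter without Adam17ex PBS replicate 4, the only deep library of that group (2.79% of all genes were then lower).

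**Figure D3:**
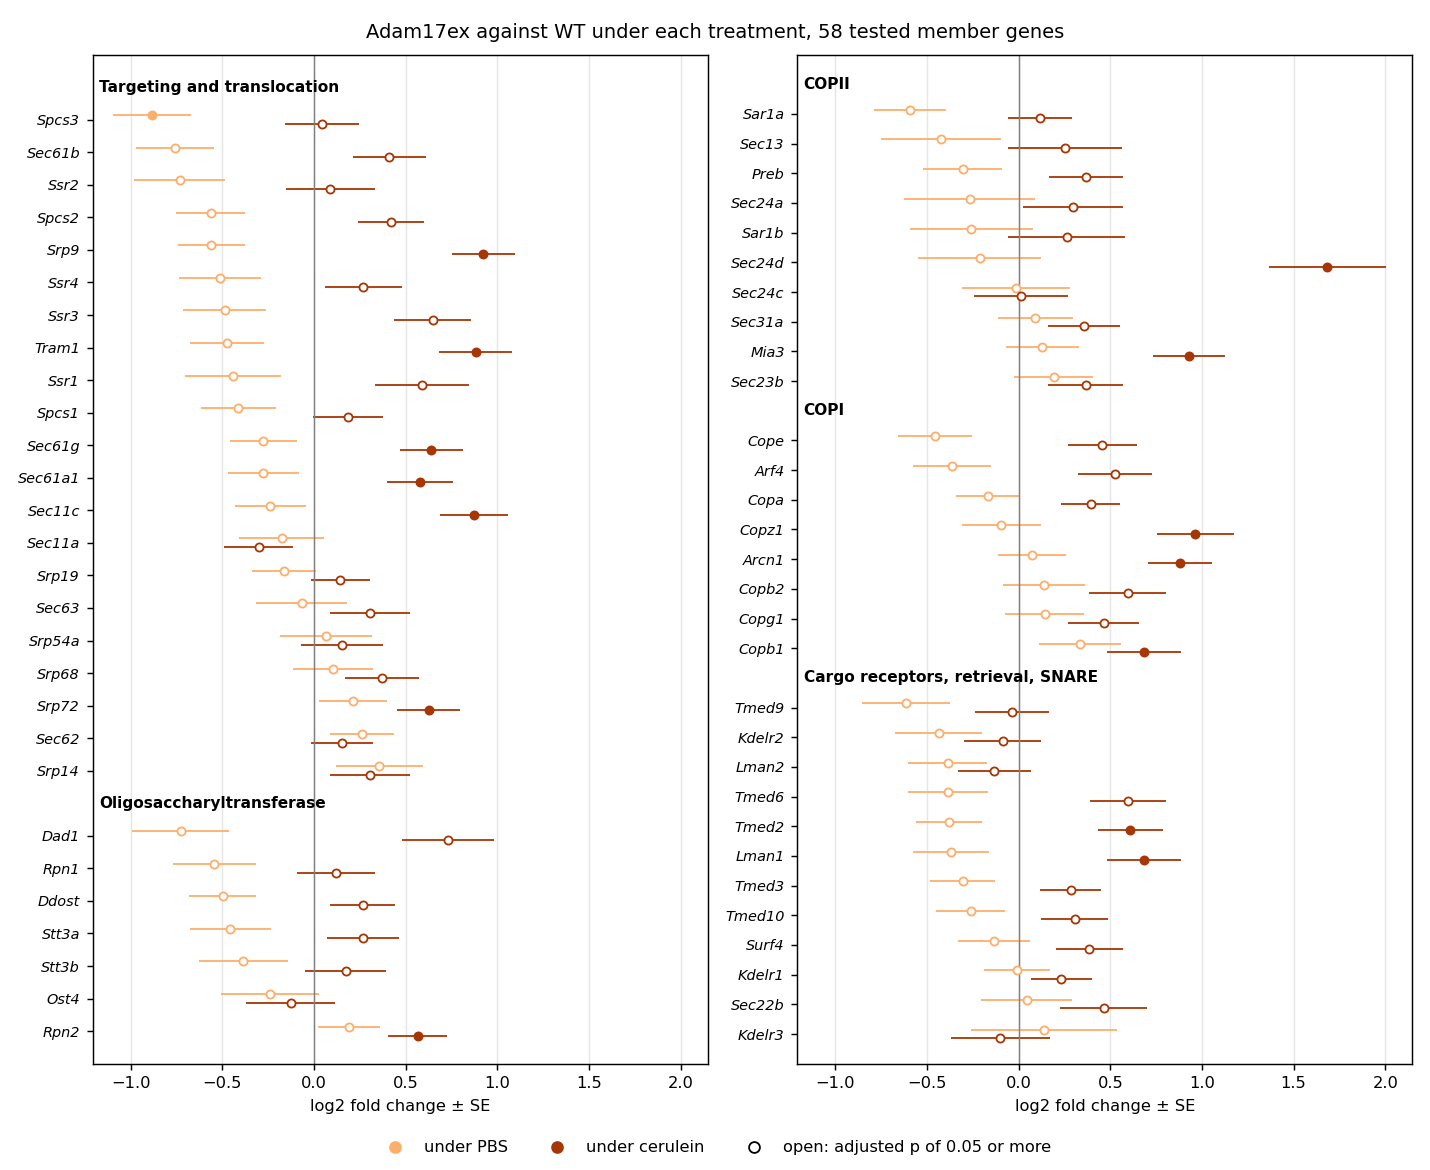
Difference between Adam17ex and WT libraries (log2 fold change ± SE, edgeR) for the 58 tested members under PBS (light) and under cerulein (dark), by class and ordered by the value under PBS, with filled points at an adjusted p below 0.05. Under cerulein the filled points lie right of 0, up to 1.68 for Sec24d, and under PBS the only filled point is Spcs3 at -0.89.

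The interaction asks whether the cerulein response itself differed between genotypes. It was positive, meaning a smaller fall or a rise in Adam17ex, for 15 of the 58 members, against 3.75% of all tested genes called positive and 2.27% negative. The median was 0.59, against -0.01 over all tested genes. None was negative in edgeR's test, at an unadjusted p below 0.05 (0 members) or by the other tools (0 each). By class, 8 translocation genes passed, 1 of the oligosaccharyltransferase, 1 of COPII, 2 of COPI and 3 of cargo and retrieval. Equally, it is the genotype difference under cerulein less that under PBS, and the members' medians there were 0.37 and -0.27. A lower Adam17ex level under PBS, where 3 of the 4 libraries were shallow, thus also makes it positive. Sec61b, Spcs2, Ssr3, Dad1, Cope and Tmed6 passed here but were not called for genotype under cerulein. The interaction uses the same 16 libraries as the contrasts above, so these counts are not separate evidence. The count was 3 without Adam17ex cerulein replicate 2 (1.69% of all genes were then positive), 2 without the 3 shallow Adam17ex PBS libraries (0.847%) and 1 among females alone (0.552%). Without any 1 library Srp9, Tram1 and Sec11c passed each time.

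Among the 6 SRP genes, Srp9, Srp68 and Srp72 fell in WT under cerulein. Srp9 (chromosome 1, 182124737 to 182132407, plus strand) encodes a subunit of the Alu domain, which slows translation while the ribosome is brought to the membrane. In WT libraries Srp9 stood at 280, 339, 254 and 297 CPM under PBS and at 78.7, 105, 80.2 and 111 under cerulein. The Adam17ex values were 208, 178, 159 and 216 CPM under PBS and 164, 191, 158 and 181 under cerulein. All WT cerulein libraries lay below the other 12, and the Adam17ex groups overlapped each other below WT PBS. Srp9 differed by -1.62 ± 0.17 in WT (edgeR adjusted p = 1.31e-07) and by -0.13 ± 0.17 in Adam17ex (edgeR adjusted p = 0.584), and the interaction was 1.49 ± 0.24 (edgeR adjusted p = 0.000611). Its Alu domain partner Srp14 did not pass in any of the 5 comparisons and stood lower throughout, at 26.5 to 72.3 CPM. Srp68 and Srp72, which form a dimer on the particle, fell by smaller amounts, -0.55 ± 0.20 and -0.65 ± 0.17. Srp54a, the subunit that binds the signal peptide, shares near-identical sequence with Srp54b and Srp54c, so its reads may have been split, and it was not called.

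The translocon genes comprise those of the SEC61 channel, its helpers Sec62 and Sec63, and Tram1. The channel genes Sec61a1, Sec61b and Sec61g fell in WT, at -0.53 ± 0.18, -1.17 ± 0.20 and -0.77 ± 0.17, and in Adam17ex their values were 0.32 ± 0.18, -0.00 ± 0.20 and 0.15 ± 0.17, none of them called. Sec61b was measured at 240, 291, 284 and 248 CPM in WT PBS libraries and at 103, 132, 115 and 119 in WT cerulein libraries. In Adam17ex it was at 174, 129, 127 and 184 CPM under PBS and 102, 184, 133 and 193 under cerulein. The beta subunit gene thus separated the WT groups, while Adam17ex PBS libraries already lay below WT PBS and overlapped those under cerulein. WT PBS libraries held Sec61g at 194, 193, 163 and 221 CPM, and WT cerulein libraries held it at 95.9, 120, 102 and 117. Adam17ex PBS libraries gave 117, 188, 123 and 163 CPM, and Adam17ex cerulein libraries 142, 183, 142 and 178. Every Adam17ex cerulein library exceeded every WT cerulein library for the gamma subunit (edgeR adjusted p = 0.0185). Sec62, which serves short and late-targeted proteins, fell in both genotypes, with -0.73 ± 0.17 in WT and -0.83 ± 0.17 in Adam17ex. The interaction for Sec62 was -0.11 ± 0.23 (edgeR adjusted p = 0.831). Its partner Sec63 was not called.

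Tram1 (chromosome 1, 13564698 to 13589910, minus strand) encodes the translocating chain-associated membrane protein, which helps nascent chains insert. The level of Tram1 was 382, 319, 408 and 363 CPM in WT PBS and 52.5, 97.5, 76.6 and 98.4 CPM in WT cerulein libraries. Corresponding Adam17ex levels were 257, 302, 177 and 245 and 131, 161, 138 and 134 CPM. The 4 groups did not overlap at all, in the order WT PBS, Adam17ex PBS, Adam17ex cerulein and WT cerulein from high to low. The fall was -2.13 ± 0.19 in WT and -0.78 ± 0.19 in Adam17ex, and the interaction 1.36 ± 0.27 (edgeR adjusted p = 0.00324).

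All 4 genes of the translocon-associated protein complex (TRAP), which sits beside SEC61 and aids the entry of some substrates, fell in WT. Ssr1 fell by the most, -1.77 ± 0.25, followed by Ssr3 at -1.27 ± 0.21, Ssr2 at -1.04 ± 0.23 and Ssr4 at -0.82 ± 0.21. In Adam17ex Ssr1 alone of the 4 was called, at -0.74 ± 0.24, and that call was lost without any 1 of 5 libraries (edgeR adjusted p up to 0.172, without Adam17ex PBS replicate 1). In WT libraries Ssr3 stood at 187, 175, 196 and 238 CPM under PBS and at 58.8, 86.4, 106 and 74.4 under cerulein. Levels in Adam17ex were 187, 142, 100 and 130 CPM under PBS and 121, 158, 108 and 116 CPM under cerulein. For Ssr3 the WT groups were apart, Adam17ex groups overlapped, and the lowest Adam17ex cerulein library was just above the highest of WT cerulein.

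The signal peptidase has alternative catalytic subunits, encoded by Sec11a and Sec11c, and these moved in opposite directions. Sec11c was measured at 364, 459, 421 and 419 CPM in WT PBS libraries and at 135, 153, 102 and 130 in WT cerulein libraries. The Adam17ex values were 442, 343, 241 and 368 CPM under PBS and 237, 248, 208 and 250 under cerulein. Sec11c was the more abundant in all 16 libraries by CPM, a comparison that poly(A)-primed counting makes nearly independent of transcript length. WT PBS libraries held Sec11a at 34.1, 46.2, 42 and 38 CPM, and WT cerulein libraries held it at 63.3, 68.7, 63.8 and 69.4. In Adam17ex it was at 26, 46.5, 32.1 and 35.4 CPM under PBS and 63.3, 53.3, 58.8 and 38.8 under cerulein. Under cerulein every WT library rose above the PBS range for Sec11a and fell below it for Sec11c. In WT Sec11a (chromosome 7, 80904889 to 80947780, minus strand) differed by 0.73 ± 0.19 (edgeR adjusted p = 0.00421) and Sec11c by -1.67 ± 0.19 (edgeR adjusted p = 2.79e-07). In Adam17ex the values were 0.60 ± 0.21 and -0.56 ± 0.18, both called. The Adam17ex calls were lost without 1 library in 6 cases for Sec11a (edgeR adjusted p up to 0.0792, without Adam17ex cerulein replicate 3) and in 5 for Sec11c (up to 0.183, without Adam17ex PBS replicate 1). The interaction was positive for Sec11c, 1.11 ± 0.26 (edgeR adjusted p = 0.0125), and for Sec11a it was -0.12 ± 0.29 (edgeR adjusted p = 0.847).

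The accessory signal peptidase subunits Spcs1, Spcs2 and Spcs3 fell in WT, at -0.94 ± 0.19, -1.31 ± 0.18 and -1.24 ± 0.19, and none was called in Adam17ex. The level of Spcs2 was 232, 296, 246 and 265 CPM in WT PBS and 84.1, 127, 88.1 and 110 CPM in WT cerulein libraries. Adam17ex PBS libraries gave 169, 173, 131 and 190 CPM, and Adam17ex cerulein libraries 109, 144, 124 and 149. Adam17ex PBS libraries lay below the WT PBS range for Spcs2, and both cerulein groups overlapped. For Spcs3 the WT PBS libraries stood at 147, 123, 134 and 149 CPM and the Adam17ex PBS libraries at 52, 80, 50.2 and 90.9, without overlap. That difference was -0.89 ± 0.21 (edgeR adjusted p = 0.0397).

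Of the 7 oligosaccharyltransferase genes, 6 fell in WT and 2 in Adam17ex. Ddost (chromosome 4, 138304730 to 138312628, plus strand) encodes the OST48 subunit. In WT libraries Ddost stood at 142, 158, 132 and 185 CPM under PBS and at 59.7, 67.6, 49.4 and 52.9 under cerulein. Corresponding Adam17ex levels were 112, 101, 111 and 115 and 81.2, 63.1, 73.2 and 59.3 CPM. Cerulein libraries lay below PBS libraries in both genotypes, Adam17ex PBS lay below WT PBS, and the cerulein groups overlapped. The falls were -1.44 ± 0.17 in WT and -0.67 ± 0.17 in Adam17ex, with an interaction of 0.76 ± 0.24 (edgeR adjusted p = 0.0648). Rpn2 encodes a ribophorin. Rpn2 was measured at 185, 159, 172 and 189 CPM in WT PBS libraries and at 76, 75.3, 90.3 and 93.4 in WT cerulein libraries. Levels in Adam17ex were 164, 219, 169 and 174 CPM under PBS and 149, 108, 88.8 and 129 CPM under cerulein. It fell, at -0.99 ± 0.16 in WT and at -0.61 ± 0.16 in Adam17ex, and its PBS groups overlapped. Under cerulein it was higher in Adam17ex by 0.56 ± 0.16, although the lowest Adam17ex library stood within the WT range, and this call was lost without any 1 of 7 libraries (edgeR adjusted p up to 0.102, without Adam17ex cerulein replicate 1).

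Dad1, named as a defender against apoptotic cell death, encodes another subunit and differed in response. WT PBS libraries held Dad1 at 179, 269, 155 and 169 CPM, and WT cerulein libraries held it at 58.8, 73.1, 62.3 and 86. The Adam17ex values were 85.8, 106, 86.4 and 147 CPM under PBS and 58, 118, 107 and 155 under cerulein. WT cerulein libraries lay below WT PBS, and the Adam17ex groups overlapped, with Adam17ex cerulein replicate 1 below the other 3 of its group and below all WT cerulein libraries. Dad1 differed by -1.41 ± 0.25 in WT and 0.05 ± 0.25 in Adam17ex, and the interaction was 1.46 ± 0.35 (edgeR adjusted p = 0.0147, and 0.0513 without Adam17ex cerulein replicate 2). The alternative catalytic subunits gave like values in WT, -0.59 ± 0.19 for Stt3a, which acts on chains in transit through the translocon, and -0.87 ± 0.22 for Stt3b, which acts afterwards. Rpn1 fell in WT, at -0.68 ± 0.20, and the small subunit gene Ost4 was not called in any comparison.

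In the COPII class, vesicle formation starts when PREB (SEC12), an exchange factor in the ER membrane, loads the GTPase SAR1 with GTP. The level of Preb was 69.3, 64.8, 81.9 and 85.8 CPM in WT PBS and 33.5, 43.2, 44.4 and 37.2 CPM in WT cerulein libraries. In Adam17ex it was at 85.8, 59.4, 68.3 and 57.6 CPM under PBS and 50.6, 74.6, 54 and 38.8 under cerulein. Preb libraries of the WT groups were apart and those of Adam17ex overlapped, with differences of -0.98 ± 0.20 and -0.31 ± 0.20. The SAR1 genes differed. In WT libraries Sar1a stood at 119, 120, 131 and 120 CPM under PBS and at 123, 115, 115 and 123 under cerulein. Adam17ex PBS libraries gave 54.6, 72.3, 88.4 and 101 CPM, and Adam17ex cerulein libraries 101, 147, 127 and 140. Sar1a did not separate the WT groups (-0.04 ± 0.17). In Adam17ex it was 0.67 ± 0.18 higher under cerulein (edgeR adjusted p = 0.00813), from a PBS level below that of WT. The lowest Adam17ex PBS values were those of the shallow replicates 1 to 3, and replicate 4 stood at 101 CPM, as did the lowest cerulein library. The Adam17ex call was lost among females alone and without the 3 shallow libraries, a fit that leaves 1 Adam17ex PBS library. Over the alternatives the difference ran from 0.303 to 1.065. The interaction for Sar1a was 0.71 ± 0.25 and did not pass (edgeR adjusted p = 0.0947). Its paralogue Sar1b, known for the export of lipoproteins, fell in WT, at -0.83 ± 0.30, a call lost without any 1 of 6 libraries (edgeR adjusted p up to 0.14, without WT cerulein replicate 4).

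The inner coat is a dimer of SEC23 and SEC24, and SEC24 forms choose the cargo. Sec24d (chromosome 3, 123267455 to 123365641, plus strand) was the one SEC24 gene called. Sec24d was measured at 25.9, 19.4, 38.8 and 55.1 CPM in WT PBS libraries and at 8.14, 12.2, 10.7 and 15.7 in WT cerulein libraries. Corresponding Adam17ex levels were 46.8, 25.8, 22.1 and 31.3 and 38, 50.7, 42 and 28.6 CPM. WT cerulein libraries were the lowest 4 of the 16, and the other 3 groups overlapped. Sec24d fell, at -1.57 ± 0.33 in WT (edgeR adjusted p = 0.000488) and was 0.33 ± 0.30 in Adam17ex (edgeR adjusted p = 0.443). Under cerulein it was 1.68 ± 0.32 higher in Adam17ex (edgeR adjusted p = 0.00124), the highest value of any member in that comparison. The interaction, 1.90 ± 0.44, was also the highest of the members (edgeR adjusted p = 0.0126, and 0.0507 without Adam17ex cerulein replicate 2). Sec24a and Sec24c were not called in any comparison, with WT differences of 0.26 ± 0.29 and -0.07 ± 0.25. Among the SEC23 genes Sec23b fell in WT, at -0.67 ± 0.20, a call lost without WT PBS replicate 3 (edgeR adjusted p = 0.072). Sec23a was counted 18, 20, 12 and 14 times over the 4 libraries of each group (WT PBS, WT cerulein, then the Adam17ex groups), and Sec16b, an exit-site scaffold gene, 8, 2, 14 and 17 times. These counts were too low to test.

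The outer coat gene Sec31a and the exit-site gene Mia3 fell in both genotypes. WT PBS libraries held Sec31a at 78.8, 73.7, 101 and 107 CPM, and WT cerulein libraries held it at 41.6, 45.4, 45.1 and 43.8. Levels in Adam17ex were 122, 98.1, 80.4 and 82.8 CPM under PBS and 69.6, 58.7, 46.8 and 49.7 CPM under cerulein. Cerulein libraries lay below PBS libraries in both, and those of Adam17ex stood wholly above those of WT, although the difference did not pass (edgeR adjusted p = 0.276). Mia3 (chromosome 1, 183326725 to 183369553, minus strand) encodes TANGO1, which helps load bulky cargo such as collagen. The level of Mia3 was 188, 146, 183 and 202 CPM in WT PBS and 53.4, 75.3, 68 and 70.3 CPM in WT cerulein libraries. The Adam17ex values were 257, 207, 145 and 178 CPM under PBS and 136, 135, 132 and 104 under cerulein. PBS groups overlapped, and the cerulein groups did not overlap. Mia3 fell, at -1.42 ± 0.19 in WT and at -0.62 ± 0.19 in Adam17ex, and under cerulein it was 0.93 ± 0.20 higher in Adam17ex (edgeR adjusted p = 0.00283). The Adam17ex fall of Mia3 was lost without Adam17ex cerulein replicate 4 or Adam17ex PBS replicate 1 (edgeR adjusted p = 0.107 and 0.138). The interaction did not pass (edgeR adjusted p = 0.0759). Sec13, the other outer coat gene, fell in WT, at -1.10 ± 0.30.

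Of the 8 COPI genes, 7 coat subunit genes and Arf4, 7 fell in WT, with Copb1 the exception at -0.38 ± 0.20 (edgeR adjusted p = 0.14). Copz1 (chromosome 15, 103272714 to 103299868, plus strand) encodes the small zeta subunit. In WT libraries Copz1 stood at 103, 76.7, 118 and 129 CPM under PBS and at 25.3, 41, 28.7 and 36.4 under cerulein. In Adam17ex it was at 125, 87.8, 100 and 85.9 CPM under PBS and 64.4, 64.9, 56.4 and 67.4 under cerulein. The cerulein groups were apart from each other and from both PBS groups, which overlapped. Copz1 fell, at -1.69 ± 0.20 in WT and -0.64 ± 0.20 in Adam17ex, and the interaction was 1.06 ± 0.29 (edgeR adjusted p = 0.0288). The Adam17ex fall was lost without any 1 of 6 libraries (edgeR adjusted p up to 0.114, without Adam17ex PBS replicate 1), and the interaction without any 1 of 7 (up to 0.0791, without WT cerulein replicate 3).

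Arcn1 (chromosome 9, 44741564 to 44767845, minus strand) encodes the delta subunit. Arcn1 was measured at 118, 101, 111 and 140 CPM in WT PBS libraries and at 47, 55.4, 58.7 and 61.2 in WT cerulein libraries. Adam17ex PBS libraries gave 143, 139, 121 and 100 CPM, and Adam17ex cerulein libraries 109, 112, 102 and 89.9. WT cerulein libraries stood below all others, which overlapped. Its WT fall was -1.08 ± 0.17, and under cerulein it was 0.88 ± 0.18 higher in Adam17ex (edgeR adjusted p = 0.00184). The interaction for Arcn1 just missed the threshold (edgeR adjusted p = 0.0506). Arf4 encodes a GTPase of the family that recruits the coat. WT PBS libraries held Arf4 at 127, 156, 183 and 163 CPM, and WT cerulein libraries held it at 69.6, 93, 61.6 and 95.1. Corresponding Adam17ex levels were 125, 134, 80.4 and 137 and 91.8, 126, 126 and 107 CPM. The WT groups were apart (-0.96 ± 0.20), the Adam17ex groups overlapped (-0.08 ± 0.20), and the cerulein groups overlapped through the lowest Adam17ex library. The other coat subunit genes Copa, Copb2, Cope and Copg1 fell in WT, at -0.65 ± 0.16, -0.53 ± 0.21, -0.89 ± 0.19 and -0.52 ± 0.19. In Adam17ex their values lay between -0.20 and 0.03 and none was called.

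The p24 family (Tmed genes), cargo adaptors that cycle in COPI and COPII vesicles, fell in WT in 4 of 5 cases, with Tmed9 at -0.04 ± 0.20 the exception. The level of Tmed2 was 237, 228, 288 and 290 CPM in WT PBS and 84.1, 98.6, 112 and 109 CPM in WT cerulein libraries. Levels in Adam17ex were 169, 214, 157 and 222 CPM under PBS and 143, 178, 145 and 131 CPM under cerulein. For Tmed2 the WT groups did not overlap, and Adam17ex libraries lay below those of WT under PBS and above them under cerulein. Tmed2 fell, at -1.33 ± 0.17 in WT, and was -0.34 ± 0.17 in Adam17ex, with an interaction of 0.99 ± 0.24 (edgeR adjusted p = 0.0152, and 0.0699 without Adam17ex cerulein replicate 2). In WT libraries Tmed10 stood at 307, 321, 352 and 403 CPM under PBS and at 134, 182, 122 and 131 under cerulein. The Adam17ex values were 309, 284, 213 and 330 CPM under PBS and 170, 203, 172 and 153 under cerulein. Tmed10 fell in both genotypes, at -1.27 ± 0.18 and -0.71 ± 0.18, without overlap between treatments, and its genotypes overlapped under cerulein. Tmed6, the most abundant of the p24 genes here by CPM, fell in WT, at -1.11 ± 0.21 and Tmed3 fell, at -0.998 ± 0.17.

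Lman1 encodes ERGIC-53, a lectin that carries glycoproteins out of the ER. Lman1 was measured at 219, 196, 283 and 288 CPM in WT PBS libraries and at 47.9, 68.7, 63 and 52.9 in WT cerulein libraries. In Adam17ex it was at 237, 199, 147 and 164 CPM under PBS and 110, 96, 81.6 and 80.4 under cerulein. The PBS groups overlapped, and the cerulein groups were apart from them and from each other. Lman1 fell, at -2.06 ± 0.20 in WT and at -1.01 ± 0.19 in Adam17ex, and the interaction was 1.05 ± 0.28 (edgeR adjusted p = 0.0245). That interaction call was lost without any 1 of 4 libraries, with an adjusted p in edgeR of up to 0.0754 without Adam17ex cerulein replicate 2. The related lectin gene Lman2 was at -0.47 ± 0.19 in WT and did not pass (edgeR adjusted p = 0.0535). Surf4, a receptor for soluble cargo, fell in WT, at -0.57 ± 0.18, and the SNARE gene Sec22b, at -0.95 ± 0.24.

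KDEL receptors retrieve chaperones that escape from the ER, and their 3 genes did not move alike. WT PBS libraries held Kdelr1 at 118, 93.1, 92.4 and 119 CPM, and WT cerulein libraries held it at 74.2, 88.6, 87.4 and 83.5. Adam17ex PBS libraries gave 96.2, 119, 90.4 and 106 CPM, and Adam17ex cerulein libraries 92.8, 111, 99.7 and 85.1. For Kdelr1 the WT cerulein libraries lay slightly below the PBS libraries, at -0.32 ± 0.16 (edgeR adjusted p = 0.122). The level of Kdelr2 was 58.8, 50.6, 65.1 and 61.3 CPM in WT PBS and 41.6, 56.5, 50.9 and 49.6 CPM in WT cerulein libraries. Corresponding Adam17ex levels were 39, 41.3, 50.2 and 45.5 and 30.6, 65.8, 40.8 and 50.4 CPM. Kdelr2 overlapped between treatments in both genotypes and was not called. Kdelr3 (chromosome 15, 79516411 to 79527739, plus strand) was the least abundant of the 3 under PBS and the one that rose. In WT libraries Kdelr3 stood at 11.8, 17.9, 14.7 and 18.4 CPM under PBS and at 34.4, 47.6, 31.5 and 35.5 under cerulein. Levels in Adam17ex were 18.2, 33.6, 2.01 and 13.1 CPM under PBS and 32.7, 23.1, 30 and 42.2 CPM under cerulein. WT cerulein libraries all exceeded WT PBS, while the Adam17ex groups overlapped through PBS replicate 2, and PBS replicate 3 lay near 1 UMI. Kdelr3 rose by 1.33 ± 0.30 in WT (edgeR adjusted p = 0.00116) and by 1.09 ± 0.35 in Adam17ex (edgeR adjusted p = 0.0203). The Adam17ex call was lost without PBS replicate 3, PBS replicate 4 or cerulein replicate 4 of that genotype. Of these fits the highest edgeR adjusted p was 0.1, without Adam17ex PBS replicate 4. Over all alternatives the Adam17ex difference of Kdelr3 ran from 0.3 to 1.533. The interaction was -0.24 ± 0.47 (edgeR adjusted p = 0.813), and the genotypes did not differ by the test under either treatment. The 3 genes are paralogues, and whether any reads were shared between them was not tested.

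**Figure D4:**
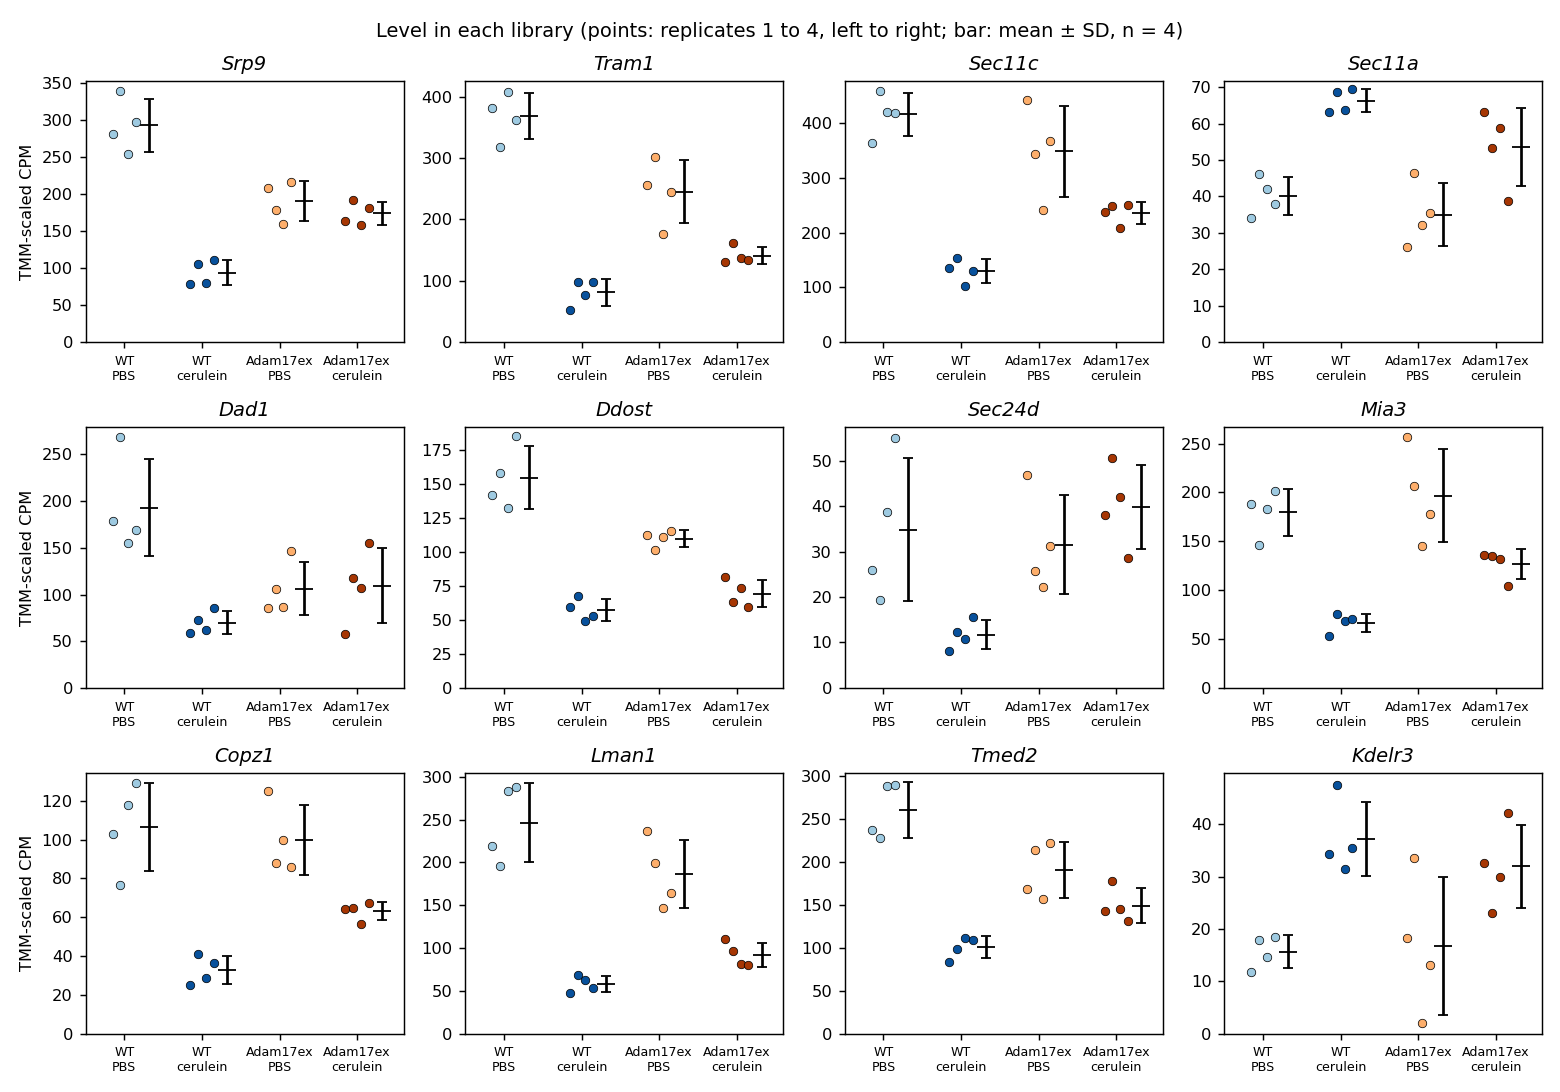
Level in each library (TMM-scaled CPM, linear axes from 0) of 12 members, with points for replicates 1 to 4 from left to right and a bar for the mean ± SD of 4 libraries. Tram1, Srp9, Sec11c, Mia3, Copz1, Lman1 and Tmed2 show WT cerulein libraries below all others, whereas Sec11a and Kdelr3 are highest in WT cerulein on average.

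The promoters of the members were searched for short motifs of the ER stress response, a programme that raises the transcription of many secretory pathway genes. RefSeq (GRCm38.p6) sequences running from 250 bases before to 50 bases after the start were matched for 49 of the 60 members, 53 promoters in all. The 11 without one were Arcn1, Kdelr2, Lman1, Sec11c, Sec61a1, Spcs3, Srp19, Srp68, Ssr2, Tmed2 and Tram1. Tram1 and Lman1, with the largest falls in WT, are thus not covered. The letters TGACGTGG, a form of the unfolded protein response element (UPRE), occurred on either strand in 6 of the 53 (11.3%). Among all 32851 promoters of the same length 0.676% held it, and among 7647 promoters of tested genes 0.981%. The 6 were those of Copb1, Copb2, Kdelr3 and Sec24d, and of Sec16b and Sec23a, which were not among the tested genes. Of the 6, 3 belong to COPII, 2 to COPI and 1 to the retrieval class. It was in 0 of 14 translocation and 0 of 8 oligosaccharyltransferase promoters. The core ACGTG, which the UPRE contains, was in 54.7% of member promoters, against 19.6% of all promoters and 27.1% of those of tested genes. By class the ACGTG core was in 7 of 14 translocation, 1 of 8 oligosaccharyltransferase, 10 of 15 COPII, 6 of 7 COPI and 5 of 9 cargo and retrieval promoters. The ER stress element (CCAAT and CCACG separated by 9 bases) and its second form (ATTGG and CCACG separated by 1 base) were in 0 of the 53, and in 0.119% and 0.0365% of all promoters. The E-boxes CATATG and CAGCTG were in 3.77% (2 promoters) and 9.43% (5 promoters). Among all promoters the shares were 3.91% and 16.3%, and among those of tested genes 1.67% and 14.5%. A match is a run of letters and shows no binding.

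The stretches from 130 bases before to 10 bases after the start are shown for the 4 tested members with a UPRE, 5′ to 3′ in the direction of transcription, with the UPRE in capitals. It reads TGACGTGG in Sec24d and, being on the other strand, CCACGTCA in Kdelr3, Copb1 and Copb2. Its first base lies 26 bases before the start in Sec24d, 30 in Kdelr3, 28 in Copb1 and 7 in Copb2.
Sec24d, chr3:123267366-123267505, plus strand: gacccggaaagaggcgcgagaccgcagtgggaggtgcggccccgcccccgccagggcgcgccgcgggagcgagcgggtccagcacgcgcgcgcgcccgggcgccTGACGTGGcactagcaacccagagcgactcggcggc
Kdelr3, chr15:79516278-79516417, plus strand: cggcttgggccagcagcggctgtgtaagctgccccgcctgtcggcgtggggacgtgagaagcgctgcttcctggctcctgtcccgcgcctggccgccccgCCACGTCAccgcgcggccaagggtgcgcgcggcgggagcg
Copb1, chr7:114254671-114254810, minus strand: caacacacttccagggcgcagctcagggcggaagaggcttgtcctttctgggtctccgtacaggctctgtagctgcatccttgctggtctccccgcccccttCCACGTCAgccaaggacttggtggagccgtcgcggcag
Copb2, chr9:98563601-98563740, plus strand: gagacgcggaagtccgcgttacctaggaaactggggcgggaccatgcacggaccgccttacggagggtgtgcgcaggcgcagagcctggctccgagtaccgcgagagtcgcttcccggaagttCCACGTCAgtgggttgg
With the same 8 letters near the start, Kdelr3 rose in WT by 1.33 ± 0.30, Sec24d fell, at -1.57 ± 0.33, and Copb2 fell, at -0.53 ± 0.21, while Copb1 was at -0.38 ± 0.20 and not called. Under cerulein Sec24d and Copb1 were higher in Adam17ex, by 1.68 ± 0.32 and 0.68 ± 0.20, and Copb2 and Kdelr3 were at 0.59 ± 0.21 and -0.10 ± 0.27 without passing. Of the 37 promoters of members that fell in WT 5.41% held the UPRE and 45.9% the ACGTG core, and of the 11 promoters of members not called 9.09% and 81.8%.

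Regulators of this machinery were measured from a list of 10, of which 7 were tested. Xbp1, whose spliced form binds the UPRE, rose under cerulein by 0.50 ± 0.18 in WT and 0.54 ± 0.18 in Adam17ex, and counts do not tell its spliced form apart. Atf6, the gene of another ER stress factor, fell in WT, at -1.18 ± 0.22 and was at -0.17 ± 0.22 in Adam17ex. Bhlha15 (MIST1), a factor that maintains the secretory apparatus of acinar cells, fell in both genotypes, at -2.66 ± 0.24 and -1.84 ± 0.24, and Creb3l1, a membrane-bound factor of secretory pathway genes, at -1.94 ± 0.41 and -1.81 ± 0.42. Ern1, the gene of the stress sensor IRE1, rose in Adam17ex by 0.80 ± 0.28 and was at -0.27 ± 0.30 in WT. The interaction did not pass for Atf6, at 1.00 ± 0.30 (edgeR adjusted p = 0.0507), or for Ern1, at 1.07 ± 0.41 (edgeR adjusted p = 0.127). Under cerulein Atf6, Creb3 and Ern1 were higher in Adam17ex, by 0.92 ± 0.22, 0.98 ± 0.23 and 1.36 ± 0.27. These were 3 of the 7 tested regulators, where 5.85% of all tested genes were higher. Calls of single regulators, other pathway genes and markers were not checked with libraries left out or under other alternatives.

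Other genes of the same pathways outside the 60 members were taken from a list of 119, of which 97 were tested. This list was also chosen with earlier results of these data known, so its counts are not independent evidence. In WT 44.3% of the 97 (43 genes) fell and 5.15% (5 genes) rose, with a median of -0.49, where 21.3% and 19.8% of all tested genes did. In Adam17ex 12.4% (12 genes) fell and 1.03% (1 gene) rose, with a median of -0.11, both below the 16.2% and 14.1% of all tested genes. Under cerulein 11.3% (11 genes) were higher and 1.03% (1 gene) lower in Adam17ex, against 5.85% and 3.85% of all tested genes. The interaction was positive for 8.25% (8 genes), against 3.75%. By group, beside the 21.3% of all tested genes, 7 of 19 translocation, 11 of 22 glycosylation, 9 of 18 COPII, 5 of 13 COPI and 11 of 25 cargo genes fell in WT. Tmed11 and Tmed4 of the p24 family fell, at -2.22 ± 0.30 and -2.15 ± 0.27, and Magt1, a thioredoxin-like subunit of the oligosaccharyltransferase form with STT3B, at -2.03 ± 0.20. The genes that rose in WT were Cnih4 and Cnih1, cargo receptors of the cornichon family, at 1.80 ± 0.36 and 0.72 ± 0.25, Trappc4, a vesicle tethering subunit, at 1.22 ± 0.30, Emc3, of the membrane insertion complex, at 0.69 ± 0.20, and Prkcsh, the beta subunit of glucosidase II, at 0.64 ± 0.25. Cnih4 was the 1 gene lower in Adam17ex under cerulein, at -1.47 ± 0.33, while Tmed11 and Magt1 had interactions of 2.10 ± 0.42 and 1.44 ± 0.28.

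Cell type markers moved with some of these comparisons. In WT the 12 acinar markers summed to 223000 to 287000 CPM under PBS and 128000 to 193000 under cerulein, and in Adam17ex to 165000 to 293000 and 196000 to 245000. Of these 12 genes 58.3% (7 genes) fell in WT, 8.33% (1 gene) fell in Adam17ex and 33.3% (4 genes) were higher in Adam17ex under cerulein, where 21.3%, 16.2% and 5.85% of all tested genes were called in those directions. Duct markers summed to 320 to 365, 967 to 1220, 319 to 416 and 422 to 472 CPM in the same order of groups. Of the 5 tested, 4 rose and 1 fell in WT (19.8% and 21.3% of all tested genes) and 1 rose in Adam17ex (14.1%). Under cerulein 4 were lower and 1 higher in Adam17ex (3.85% and 5.85%), and the interaction was negative for 3 (2.27%). Markers of B and plasma cells summed to 35.3 to 110 CPM in WT cerulein, where Cd79a, Cd79b and Ms4a1 were at 0, and to 37.5 to 213 in Adam17ex cerulein, where Cd79a was at 0. Adipocyte markers summed to 54.6 to 466 CPM and 38 to 67.6 CPM in the WT groups (Plin1 and Lep at 0 under cerulein) and to 166 to 876 and 77 to 405 CPM in the Adam17ex groups (Lep at 0 under cerulein). Fibroblast markers ran from 187 to 491, 188 to 284, 419 to 1240 and 295 to 448 CPM, islet markers from 4260 to 13200, 1330 to 9110, 5060 to 22000 and 1750 to 6140, macrophage markers from 60.9 to 363, 117 to 196, 135 to 940 and 108 to 187, and endothelial markers from 40.2 to 56.7, 32.2 to 54.3, 68.7 to 137 and 41.6 to 74.4. Tested markers lower with cerulein in WT, and then in Adam17ex, were 0 and 6 of 7 islet and 1 and 4 of 5 fibroblast genes. For macrophages they were 0 and 3 of 5, and for endothelium 1 and 1 of 3. For B and plasma cells they were 4 and 4 of 4, and for adipocytes 4 and 3 of 4. Of all tested genes 21.3% and 16.2% were lower in these comparisons. The part of these cell types in the members' differences was not tested. With 3 libraries left out that held more B cell and adipocyte marker RNA than the others of their groups (WT PBS replicates 1 and 2 and Adam17ex cerulein replicate 3), 36 members fell in WT, 11 were higher in Adam17ex under cerulein, and the interaction was positive for 9, where 14.6%, 4.33% and 1.88% of all genes were called. With the 5 libraries of highest B and plasma cell marker sums left out (those 3 and Adam17ex PBS replicates 3 and 4), the counts were 40, 16 and 7, where 17.2%, 5.72% and 1.94% of all genes were called.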

How the data were processed

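RNA from mouse pancreas was measured in 16 libraries, and the authors deposited whole-number UMI counts per gene with no normalization, per the file headers. Per the submitters' processing notes the builds were GRCm38 and mm10 and the tools R 4.1.2, edgeR 3.36.0 and limma 3.50.0. How reads were aligned and counted, and whether by strand, is not given in the sources used here, so reads of overlapping or near-identical genes may be split or shared. Per the labels' protocols priming was at the poly(A) tail, so counts report the 3′ end.

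From these counts, filterByExpr (minimum count 10) kept 8236 genes, to which TMM scaling was applied. The quasi-likelihood fit (edgeR 4.0.16, R 4.3.3) had 1 coefficient per group and a sex term over 16 libraries, with 11 residual degrees of freedom. Adjusted p-values (Benjamini-Hochberg) run over all tested genes, and calls are at 0.05 with no fold threshold. Counts were simulated with 100 genes raised 2-fold, 100 raised 4-fold and all others unchanged. The fit recovered 56.6% and 99% of the raised genes for cerulein in WT (8147 genes tested) and 18.2% and 79% for the interaction (8014 genes tested). In the data 41.1% of tested genes were called for cerulein in WT and most members fell, so these rates need not hold there. The p-values measure the spread between mice as labelled. Members and lists were chosen with earlier results of these data known. Full values per library were given for 25 members, by a rule that takes in each class the smallest p for cerulein in WT (3 members) and for genotype under cerulein (2 members), up to 10 members called in the interaction, up to 5 called against the majority, and the KDEL receptors. Spcs3 and other members named in passing fall outside it. Depth, 455547 to 1476159 UMIs, limits what low genes can show. Within groups, all 24 library pairs differed beyond sampling noise (chi-square per degree of freedom 3.06 to 9.5). Alternatives were RLE and upper-quartile factors, TMM without digestive enzymes, no filter or a minimum count of 30, DESeq2 1.42.0, limma-voom (limma 3.58.1), no sex term, a replicate block, thinned counts, females only, and leaving out libraries. A comparison of member proteins was planned and is not analysed here.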

Additional observations from a re-analysis of the deposited data

Results flagged for a closer look

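The cerulein response differed between genotypes, by the interaction term of edgeR's quasi-likelihood fit, in 15 members, each with the Adam17ex response higher than that of WT. A lower Adam17ex level under PBS also raises this difference. Among targeting and translocation genes the Adam17ex minus WT difference in log2 response was 1.49 ± 0.24 for Srp9, 1.36 ± 0.27 for Tram1, 1.11 ± 0.26 for Sec11c, 1.17 ± 0.28 for Sec61b, 0.98 ± 0.25 for Spcs2, 1.14 ± 0.29 for Ssr3, 0.92 ± 0.24 for Sec61g and 0.85 ± 0.25 for Sec61a1. It was 1.46 ± 0.35 for Dad1 of the oligosaccharyltransferase and 1.90 ± 0.44 for Sec24d of COPII. Among COPI genes it was 1.06 ± 0.29 for Copz1 and 0.91 ± 0.27 for Cope. Among cargo receptors it was 0.99 ± 0.24 for Tmed2, 1.05 ± 0.28 for Lman1 and 0.98 ± 0.29 for Tmed6. Of these 15 calls, 12 were lost without at least 1 library, and 1, that of Srp9, passed under all alternatives. Without Adam17ex cerulein replicate 2 only 3 members passed, where 1.69% of all genes were positive. The edgeR adjusted p was then 0.144 for Sec61a1, 0.146 for Tmed6 and 0.092 for Sec61g. For Cope the edgeR adjusted p reached 0.12 without WT cerulein replicate 3.

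A single library stood apart from the other 3 of its group in 2 of 100 groups examined, where chance sets apart about 1 in 20. Mia3 in Adam17ex cerulein replicate 4 was at 104 CPM, with the others at 132 to 136. Sar1a in WT PBS replicate 3 was at 131 CPM, with the others at 119 to 120.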

How the results depend on the processing

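No member value that passed the test turned its direction under any of 31 alternatives. In WT, 34 of 45 calls passed under all of them, in Adam17ex 1 of 14 (Sec62), for genotype under cerulein 1 of 14 (Sec11c), for genotype under PBS 0 of 1, and in the interaction 1 of 15 (Srp9). The count of members lower with cerulein in WT ran from 37 to 44 without 1 library (17.3% to 20.7% of all genes tested in those fits). That of members higher stayed at 2 (16.9% to 21.2%). Shares in brackets below are likewise those of all genes called in the same direction. Members higher with cerulein in Adam17ex, 3 as reported, numbered 5 with no count filter (6.08%) and 0 in females (8.33%). They numbered 1 without the 3 marker-rich libraries and Adam17ex PBS replicate 3 (11.5%) or without the 5 richest in B cell markers (8.44%). Without 1 library they numbered 1 to 5 (12.1% to 15.7%). Members lower, 11 as reported, numbered 3 with no count filter (5.38%), 17 of 56 at a minimum count of 30 (22%) and 5 in females (7.7%). They numbered 7 without the 3 marker-rich libraries (13.5%) and 7 to 11 without 1 library (10.8% to 15.9%). Without the 3 shallow Adam17ex PBS libraries the members' median was -0.295, against 0.039 over all genes. Members higher in Adam17ex under cerulein, 14 as reported, numbered 8 with no count filter (2.15%), 1 in females (1.97%) and 4 to 15 without 1 library (2.98% to 6.23%). Members lower in Adam17ex under PBS, 1 as reported, numbered 4 with no count filter (0.829%), 4 with no sex term (2.88%) and 3 with DESeq2 (1.88%). They numbered 0 with thinned counts (0.452%) and in females (0.0564%). Without the marker-rich libraries (3, 4 or 5 left out) they numbered 0 as well (0.153%, 0.125% and 0.173%). Without 1 library they numbered 0 to 4 (0.14% to 2.79%). Without the shallow libraries the members' median was -0.2, against -0.038 over all genes. Members with a positive interaction, 15 as reported, numbered 1 in females (0.552%) and 3 to 18 without 1 library (1.69% to 5.01%). Without the marker-rich libraries (3, 4 and 5 left out) they numbered 9, 8 and 7 (1.88%, 1.74% and 1.94%). Without the shallow libraries the members' median was 0.634, against 0.084 over all genes. The alternatives that left out marker-rich libraries were chosen after seeing the data. Females alone are 11 libraries, and leaving out the shallow libraries leaves 1 Adam17ex PBS library, taken to vary like the other groups. In these fits the number of libraries changes together with sex or depth, which cannot be told apart. The cause of the changes was not tested.

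With the replicate number as a block, 42 members were lower and 2 higher in WT, where 20.9% and 19.6% of all genes were. In Adam17ex 11 were lower and 3 higher (15.7% and 13.9%). Under cerulein 13 were higher in Adam17ex (5.46%), under PBS 3 were lower (1.61%), and 16 were positive in the interaction (3.75%). By these values the numbers were not taken to pair the mice: over 24 same-number pairs the correlation of deviations ran from -0.21 to 0.23, 5 were over 0.1, and 6 of 16 libraries correlated best with their own number. Between the Adam17ex PBS and cerulein groups 3 of 4 same-number pairs were over 0.1, from -0.002 to 0.229, as were 0 of 12 other pairs, and a shared source of those mice was not tested.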
